A study of Homo sapiens with 22 samples.

Results

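The genes described here are 7 matricellular genes: TNC (tenascin C), THBS1 and THBS2 (the thrombospondins 1 and 2), SPP1 (osteopontin), POSTN (periostin), SPARC (osteonectin) and SPARCL1 (hevin). They were taken by symbol, and all 7 of 7 had a row in each single-cell count table, of 33538 gene rows in the first experiment and of 36601 gene rows in the other two. No measured level entered that rule, but the members were chosen with earlier results of these data known. Counts of members called, set beside the share over all genes, are therefore a description.

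The study followed the primed state, a rare and reversible state in which BRAF-mutated melanoma cells survive targeted therapy, against the drug-susceptible state of the other cells. Single cells were profiled by droplet RNA-seq in untreated WM989 cells (1 sample, 8 wells of a chip in replicates r1 and r2), in untreated WM983B cells (1 sample) and in WM989 cells left untreated or given TGFB1, TGFBRi (LY2109761, an inhibitor of the TGF-beta receptors) or PI3Ki (GDC-0941, a PI3-kinase inhibitor), with 2 libraries per treatment. Chromatin accessibility was profiled by ATAC-seq in WM989 cells sorted by the surface proteins EGFR and NGFR, which mark primed cells: EGFR_high, NGFR_high, EGFR_NGFR_high and Mix, with 3 libraries each. The labels call the last sort Mix, whereas the methods of the study describe cells negative for both markers. In the first experiment, per the methods, part of the chip wells held progeny of cells sorted as EGFR/NGFR-high and the rest held progeny of mixed cells, so that primed cells were enriched, but which well held which was not labelled. Both lines are melanoma cell lines grown from repeated single-cell bottlenecks, so that each stands for 1 clone. In the treatment experiment the cells of 1 starting well were split over the 4 treatments, and this was done for each of 2 starting wells, r1 and r2. The sample titles name these pairs Mix and Primed, which could not be matched to r1 and r2, so the spread between them may hold a difference in the starting cells as well as culture and technical differences.

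Matricellular proteins are secreted into the extracellular matrix, where they act on cells through integrins and other surface receptors rather than as structural fibres. Their genes are typically low in resting adult tissue and are switched on in development, in wounds and in tumours, and several are long-known targets of TGF-beta signalling. In melanoma, TNC and SPP1 are known for invasive tumours, and SPARC is made by most melanoma cells.

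The single-cell tables held 12531 cells with a median of 53571 UMIs (unique molecular identifiers, which count captured RNA molecules) for untreated WM989, 1449 cells with a median of 66668 UMIs for WM983B, and 40021 cells with a median of 16321 UMIs for the treated WM989 cells. The 8 treatment libraries held between 3692 and 6273 cells and between 70239657 and 122420544 UMIs. Few cell barcodes occurred in more than 1 library: 19 of 12512 distinct barcodes in the first experiment and 194 of 39827 in the treatment experiment. The melanocyte genes MLANA and PMEL were at 1683 and 2158 UMI counts per 1000000 UMIs (CPM) in drug-susceptible WM989 cells and at 59.0 and 66.8 CPM in primed cells, whereas the primed markers AXL and EGFR were at 42.3 and 48.1 CPM in primed and 0.47 and 3.37 CPM in drug-susceptible cells. Of 10 marker genes of other cell types, CD3E, PTPRC, EPCAM, KRT5 and CDH5 were at most 0.2 CPM in every state. In primed and drug-susceptible cells of untreated WM989, PDGFRA was at 47.3 and 0.73 CPM, PECAM1 at 22.8 and 0.18, DCN at 6.19 and 1.33, VWF at 2.47 and 0.31 and LUM at 16.9 and 32.2. In WM983B LUM was at 83.3 and 99.9 CPM and DCN at 1.31 and 1.74, while PDGFRA and PECAM1 were at most 0.35 CPM and VWF at most 0.06 in either state. Their part in the results was not tested.

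On genome build hg38, TNC lies at chr9:115019575-115118207 on the minus strand, THBS1 at chr15:39581079-39599466 on the plus strand, SPP1 at chr4:87975667-87983532 on the plus strand and SPARC at chr5:151661096-151686975 on the minus strand. THBS2 lies at chr6:169215780-169254050, POSTN at chr13:37562583-37598844 and SPARCL1 at chr4:87473335-87531061, all on the minus strand. The 250 bases before the RefSeq start (promoter table, build GRCh38.p14) are shown for TNC, THBS1, SPP1 and SPARC, since the results turn on their transcripts and ATAC-seq peaks lay over their starts. Capitals mark matches, on either strand, to the letters TGANTCA (the AP-1 motif), GGAATG (the TEAD motif), CAGAC (a SMAD-binding motif) or TATAAA (a form of the TATA box). These are matches of letters and not measured sites.
TNC (chr9:115118158-115118407, minus strand): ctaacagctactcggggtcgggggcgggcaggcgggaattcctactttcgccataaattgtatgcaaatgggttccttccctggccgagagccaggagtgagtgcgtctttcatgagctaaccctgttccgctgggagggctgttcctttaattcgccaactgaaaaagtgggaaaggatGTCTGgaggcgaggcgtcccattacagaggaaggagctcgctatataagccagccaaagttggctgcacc
THBS1 (chr15:39580829-39581078, plus strand): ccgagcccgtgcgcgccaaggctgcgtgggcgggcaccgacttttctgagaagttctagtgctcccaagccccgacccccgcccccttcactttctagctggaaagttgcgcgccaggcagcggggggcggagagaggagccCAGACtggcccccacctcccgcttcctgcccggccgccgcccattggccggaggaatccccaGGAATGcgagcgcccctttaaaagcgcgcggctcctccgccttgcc
SPP1 (chr4:87975464-87975713, plus strand): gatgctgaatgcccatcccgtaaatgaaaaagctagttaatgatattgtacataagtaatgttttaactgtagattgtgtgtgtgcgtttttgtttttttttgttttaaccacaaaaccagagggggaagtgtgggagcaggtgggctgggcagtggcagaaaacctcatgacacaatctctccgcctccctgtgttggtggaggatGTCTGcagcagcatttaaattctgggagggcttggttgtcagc
SPARC (chr5:151686916-151687165, minus strand): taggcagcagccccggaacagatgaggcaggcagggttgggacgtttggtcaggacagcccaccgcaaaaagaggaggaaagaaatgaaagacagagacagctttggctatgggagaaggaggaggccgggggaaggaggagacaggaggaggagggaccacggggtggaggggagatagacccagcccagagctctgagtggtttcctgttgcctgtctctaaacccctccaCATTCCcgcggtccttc

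In these stretches the SMAD letters began 70 bases before the TNC start, 108 before the THBS1 start and 43 before the SPP1 start, all in a motif that 38.0% of 35116 stretches of the same length hold. The TEAD letters began 46 bases before the THBS1 start and 17 before the SPARC start, and 11.9% of all stretches hold them. None of the 4 stretches held the AP-1 letters (6.57% of all stretches) or TATAAA (10.7%). Other forms of the TATA box, such as the letters TATATAAG in the TNC stretch, were not searched. Among the other members, the stretch before POSTN held the AP-1 letters 220 bases before the start, and the stretches before THBS2, POSTN and SPARCL1 held TATAAA.

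In untreated WM989 cells the transcripts of TNC, THBS1 and SPP1 were higher in the primed state and that of SPARC was lower. State was assigned by the authors from clusters built on these same counts, with 2843 cells in 3 primed clusters (2, 8 and 9) and 9688 in 8 drug-susceptible clusters, so the values by state are a description without a test. Levels are CPM of the summed UMIs of the cells, and the wells hold cells of 2 replicates and are not independent samples. SPP1, a secreted glycoprotein that binds CD44 and integrins, was at 474 CPM in the primed state and at 7.27 CPM in the drug-susceptible state, a 65.2-fold difference. Over the 8 wells SPP1 ranged from 371 to 585 CPM (median 457) in primed cells and from 3.15 to 24.3 CPM (median 10.4) in drug-susceptible cells. The SPP1 levels of the states did not overlap, and the ratio within a well ranged from 18.7 to 168.

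THBS1, a large glycoprotein that binds CD47 and integrins and can activate latent TGF-beta, was at 42.9 CPM when primed and at 3.76 CPM otherwise, 11.4-fold apart. Its level over the wells ranged from 18.3 to 78.4 CPM (median 40.5) in primed cells and from 1.27 to 18.8 CPM (median 4.65) in drug-susceptible cells, so that the states overlapped between wells. Within each of the 8 wells THBS1 was higher in primed cells, by 3.85 to 15.4 times. TNC, a hexameric matrix protein of wounds and tumour stroma, was at 44.7 CPM when primed and at 6.02 CPM otherwise, 7.43-fold apart. TNC ranged over the wells from 14.6 to 66.8 CPM (median 38.7) in primed cells and from 1.85 to 23.0 CPM (median 8.09) in drug-susceptible cells. Here too the states overlapped between wells but not within them, and TNC was higher in primed cells in 8 of 8 wells, by 2.90 to 7.90 times. With the wells weighted equally in place of their cells pooled, the log2 ratio was 2.02 rather than 2.89 for TNC, 2.78 rather than 3.51 for THBS1 and 5.41 rather than 6.03 for SPP1.

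SPARC, a collagen-binding glycoprotein, went the other way in this experiment. Its level was 140 CPM in primed cells against 247 CPM in the others, with wells from 92.7 to 213 CPM (median 142) and from 201 to 390 CPM (median 274), and in 8 of 8 wells it was lower in primed cells, at 0.358 to 0.707 of the drug-susceptible level. THBS2, the second thrombospondin, was near its detection limit, with 79 UMIs in primed and 29 in drug-susceptible cells (7.92-fold higher in CPM, counting interval 5.11 to 12.6). SPARCL1, the closest relative of SPARC, gave 8 UMIs in primed and 66 in drug-susceptible cells, a ratio of 0.352 (counting interval 0.146 to 0.735). That direction came from r1, with 1 against 54 SPARCL1 UMIs, while r2 had 7 against 12 UMIs and a ratio of 1.33 (0.443 to 3.66). POSTN, an integrin ligand of fibroblasts, gave 3 UMIs in all, none of them in the 2843 primed cells, which allows a share of primed cells with a UMI of up to 0.106%. Intervals and limits on single sums are 95% exact intervals and 3-count floors, and they cover counting error only.

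The replicates of the WM989 experiment differed in level. In r1 and r2, TNC was at 29.8 and 60.3 CPM in primed cells and at 3.30 and 10.4 CPM in drug-susceptible cells. THBS1 was at 22.0 and 64.7 CPM in primed cells and at 1.71 and 7.06 CPM in drug-susceptible cells. SPARC was at 111 and 170 CPM in primed cells and at 211 and 306 CPM in drug-susceptible cells. All 3 were higher in r2 than in r1 in both states. SPP1 was at 485 and 462 CPM in primed cells and at 4.79 and 11.3 CPM in drug-susceptible cells, so that it differed between the replicates in the latter state and hardly in the former. The share of primed cells in wells 1 to 8 was 56.9, 62.4, 7.87, 6.85, 79.7, 76.9, 9.17 and 9.42%, wells 1 to 4 being r1. SPP1 in the drug-susceptible cells of the same wells was at 7.26, 13.3, 3.15, 3.32, 24.3, 15.4, 9.30 and 11.5 CPM. In each replicate its 2 highest drug-susceptible levels were in the 2 wells with the most primed cells, and the same held for TNC, THBS1 and SPARC. SPARC in drug-susceptible cells, for example, was at 259, 246, 205 and 201 CPM in the wells of r1 and at 369, 390, 301 and 289 CPM in those of r2, although it was lower in primed cells. The drug-susceptible cells of wells 1 to 8 numbered 194, 639, 1475, 3578, 83, 134, 1941 and 1644. Their median depths were 95345.5, 72693, 78291, 46092.5, 134402, 116334, 54402 and 48364 UMIs. Free RNA in droplets can give UMIs in cells that do not express a gene, and no cells known to lack these genes were in the libraries. The wells also differed in depth and, per the methods, in the sort from which their cells descended. The part of each was not tested.

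**Figure D1:**
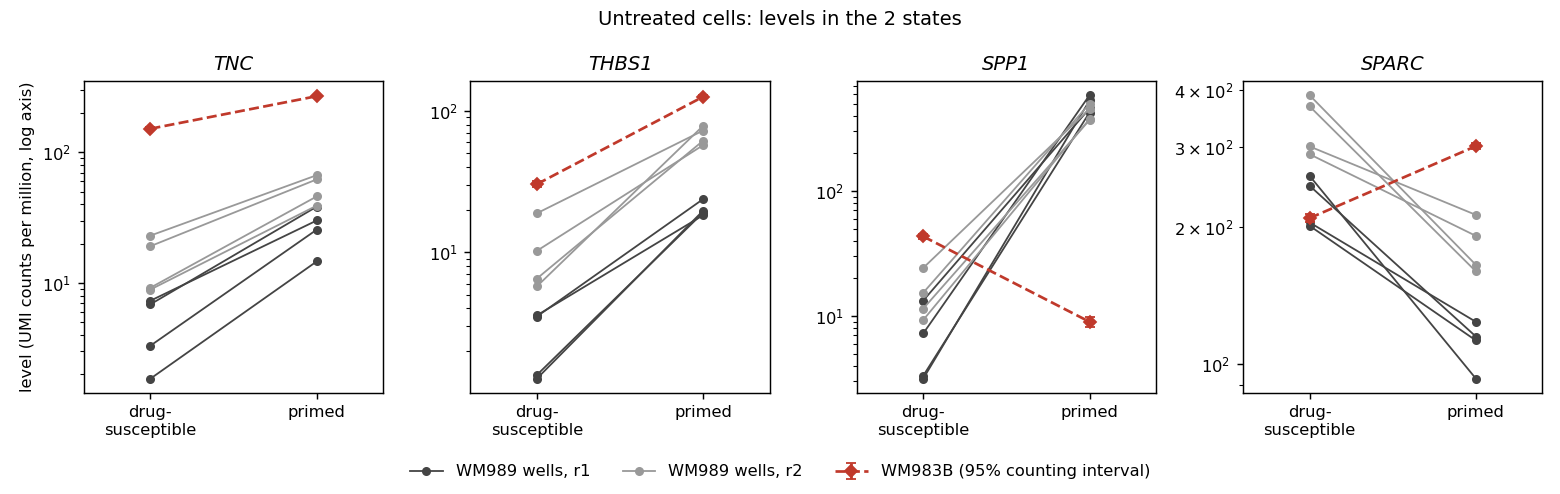
Levels of TNC, THBS1, SPP1 and SPARC (CPM, log axis) in drug-susceptible and primed cells of the 8 untreated WM989 wells (grey lines, dark for r1 and light for r2) and of the WM983B sample (red dashed line, with its 95% counting interval). SPP1 in primed cells lies between 371 and 585 CPM in the WM989 wells, above the drug-susceptible cells of each well, and at 8.99 against 43.4 CPM in WM983B, and SPARC is lower in primed cells of each WM989 well and higher in those of WM983B.

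The spread of the transcripts over single cells was examined next. Cells with a SPP1 UMI made up 94.9% of the primed state and 18.2% of the drug-susceptible state, those with a TNC UMI 72.9 and 17.8%, with a THBS1 UMI 56.5 and 12.4% and with a SPARC UMI 94.1 and 99.0%, at median depths of 58253 and 52835 UMIs per cell. With every cell thinned to 10000 UMIs the shares were 79.9 and 4.80% for SPP1, 30.3 and 5.56% for TNC, 24.1 and 3.09% for THBS1 and 61.9 and 83.4% for SPARC. The tenth of primed cells richest in a gene held 41.3% of the SPP1, 42.1% of the TNC and 60.8% of the THBS1 UMIs of the state, against 38.9% of the SPARC UMIs. In the drug-susceptible state the tenth richest in each gene held 80.4% of the SPP1, 77.6% of the TNC, 89.0% of the THBS1 and 29.4% of the SPARC UMIs. This share depends on the level itself, so the states, which differ in level, cannot be compared in evenness by it. At the thinned depth, 7.14% of primed cells held a UMI of all 3 of TNC, THBS1 and SPP1 and 10.6% held none, against 0.0723% and 88.0% of drug-susceptible cells. A further 30.6% of primed and 1.27% of drug-susceptible cells held a UMI of 2 of the 3 genes. Joint detection was thus more frequent in primed cells, while most of them held a UMI of 1 gene or none at this depth. The higher shares of the single genes alone would raise joint detection there. Whether the genes were found together beyond that was not tested.

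The 3 primed clusters of WM989 differed in their SPP1 level. SPP1 was at 555 CPM in r1 and 563 in r2 in cluster 2, at 382 and 302 in cluster 8 and at 373 and 342 in cluster 9. Cluster 2 was thus above the other two in both replicates, while clusters 8 and 9 overlapped. THBS1 was at 24.6 and 73.8 CPM in cluster 2, at 21.9 and 80.3 in cluster 8 and at 14.4 and 41.0 in cluster 9, and TNC at 32.1 and 59.7, at 20.1 and 44.6 and at 32.0 and 68.1. Within each replicate THBS1 was lowest of the 3 in cluster 9 and TNC was lowest in cluster 8, although the ranges over the replicates overlapped. Among drug-susceptible clusters, cluster 4 had the highest means of all 4 genes: 7.06 and 23.1 CPM for TNC, 3.74 and 24.9 for THBS1, 9.86 and 38.2 for SPP1 and 284 and 489 for SPARC. As in each other drug-susceptible cluster, the median cell of cluster 4 had 0 CPM of TNC, THBS1 and SPP1. A SPP1 UMI was found in 20.2% of the cells of cluster 4 and in 23.0% of those of cluster 6. SPARC was lowest in the primed cluster 9, at 62.0 and 103 CPM. By cell cycle phase, as the authors assigned it, primed cells had SPP1 at 532 CPM in G1, 328 in S and 334 in G2M, THBS1 at 45.8, 51.9 and 25.0 and SPARC at 155, 126 and 86.0. TNC was nearly level over the phases, at 43.4, 47.9 and 47.7 CPM.

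In WM983B, a second BRAF-mutated melanoma line, the order of SPP1 and SPARC by state was the opposite of that in the first WM989 experiment. The sample held 731 primed cells in clusters 0 and 2 and 718 drug-susceptible cells in clusters 1 and 3, in 1 library, so that no replicate check exists. These states are the authors' cluster labels, and the order by state rests on them. In the paper's flow cytometry for NT5E, a much smaller share of untreated WM983B cells was primed. That share was set in advance through the threshold, so it is not a count to compare with these labels. SPP1 was at 8.99 CPM in the primed cells against 43.4 CPM in the others, with a ratio of 0.207 (counting interval 0.187 to 0.230). Cells with a SPP1 UMI made up 22.8% of the primed state and 68.2% of the drug-susceptible state. SPARC was at 301 and 209 CPM, with a ratio of 1.44 (1.41 to 1.48). THBS1 and TNC were higher in primed cells as in WM989: THBS1 at 126 and 30.3 CPM (ratio 4.16, 3.94 to 4.39) and TNC at 269 and 151 CPM (ratio 1.78, 1.73 to 1.83). TNC was found in 100% of the primed WM983B cells and in 97.4% of the others.

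By cluster of WM983B, SPP1 was at 7.22 and 20.6 CPM in the primed clusters 0 and 2 and at 47.0 and 21.0 CPM in the drug-susceptible clusters 1 and 3. SPP1 was thus nearly level between clusters 2 and 3, and the states differed mainly between clusters 0 and 1. THBS1 was at 137 and 54.7 CPM in clusters 0 and 2 and at 21.1 and 86.8 CPM in clusters 1 and 3, so that the drug-susceptible cluster 3 stood above the primed cluster 2. For TNC and SPARC both primed clusters were above both drug-susceptible ones. THBS2 gave 4 UMIs in primed and 6 in drug-susceptible cells, SPARCL1 gave 2 and 0, and POSTN gave none in either state.

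The treatment experiment compared TGFB1, TGFBRi and PI3Ki with untreated WM989 cells. Counts were summed over all cells of a library, where a change in the number of primed cells and a change of RNA per cell cannot be told apart. All 3 comparisons share the 2 untreated libraries. TGFB1 raised 4 of the 5 members that passed the filter on low counts, where 16.3% of all 18389 genes tested were called higher and 12.7% lower. POSTN and SPARCL1 did not pass the filter.

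SPP1 was at 5.61 and 9.90 CPM in untreated libraries r1 and r2 and at 103 and 92.8 CPM with TGFB1. The groups were far apart, a difference of 3.68 ± 0.14 on the log2 scale (SE), 12.8-fold (edgeR quasi-likelihood test, adjusted p = 6.54e-15). THBS1 was at 1.86 and 4.52 CPM in untreated and at 39.9 and 43.2 CPM in TGFB1 libraries. It rose by 3.75 ± 0.17 on the log2 scale, 13.5-fold (edgeR adjusted p = 1.16e-13), and the groups did not overlap. TNC was at 3.66 and 6.43 CPM in untreated and at 18.7 and 20.5 CPM in TGFB1 libraries. Its rise was 1.99 ± 0.13 on the log2 scale, 3.96-fold (edgeR adjusted p = 5.81e-11), again without overlap.

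SPARC was at 173 and 174 CPM in untreated and at 211 and 210 CPM in TGFB1 libraries, a rise of 0.26 ± 0.07 on the log2 scale (edgeR adjusted p = 0.00795). The SPARC groups did not overlap, but the call was lost without the replicate block (edgeR adjusted p = 0.0551) and without untreated r1 (0.148), TGFB1 r1 (0.0628) or TGFB1 r2 (0.0767). THBS2 stayed between 0.0499 and 0.163 CPM in these 4 libraries and did not pass the test (log2 difference 0.11 ± 0.54, edgeR adjusted p = 0.913). SPARCL1 was at 0.0512 and 0.0125 CPM in untreated and at 0.0125 and 0.141 CPM in TGFB1 libraries. POSTN gave 1 UMI in the untreated and 4 UMIs in the TGFB1 libraries together.

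The TGFB1 libraries also held more primed cells, 29.1 and 31.3% of cells against 2.26 and 4.47% in the untreated libraries, in the authors' clusters. Of the SPP1 UMIs, 89.0 and 91.2% lay in primed cells with TGFB1 and 46.3 and 62.7% without. For THBS1 the shares were 67.1 and 66.0% with TGFB1 and 32.4 and 36.4% without. For TNC they were 26.2 and 34.2% with TGFB1 and 11.5 and 17.1% without, while primed cells held 25.2 and 26.4% of all UMIs in the TGFB1 libraries and 1.72 and 3.10% in the untreated ones. With TGFB1, TNC was thus spread over the states nearly as all RNA was in r1 and leaned to primed cells in r2. SPP1 and THBS1 leaned further to primed cells in both.

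The levels were next compared within each state. The states were assigned from the same counts, so which cells stand in a state can itself move with the members' levels. Free RNA from primed cells can also give UMIs in drug-susceptible cells. Primed cells held 89.0 and 91.2% of the SPP1 UMIs in the TGFB1 libraries. The part of free RNA in the levels within a state was not tested. In drug-susceptible cells TGFB1 raised 4 of 5 members tested (of 17914 genes 8.56% were called higher and 6.32% lower, 14.9% in all). TNC was at 3.30 and 5.51 CPM in untreated and at 18.4 and 18.3 CPM in TGFB1-treated drug-susceptible cells, a rise of 2.08 ± 0.14 on the log2 scale (edgeR adjusted p = 1.55e-10). THBS1 was at 1.28 and 2.97 against 17.6 and 19.9 CPM, a rise of 3.17 ± 0.15 (edgeR adjusted p = 5.9e-13), and SPP1 at 3.06 and 3.81 against 15.2 and 11.1 CPM, a rise of 1.92 ± 0.14 (edgeR adjusted p = 4.9e-10). For none of the 3 did the groups overlap. SPARC was at 174 and 174 against 213 and 209 CPM (0.27 ± 0.07, edgeR adjusted p = 0.0142), but this call was lost without the replicate block (0.103) and without any 1 of the 4 libraries compared (untreated r1 0.212, untreated r2 0.0657, TGFB1 r1 0.152, TGFB1 r2 0.0849). Here too the cells compared lay partly in different clusters, since cluster 3 held 3801 TGFB1-treated and 115 untreated cells. Within the drug-susceptible clusters, with r1 and r2 pooled and no test, SPARC was higher with TGFB1 in 5 and lower in 6 of 11. TNC was higher in all 11, THBS1 in 10 and SPP1 in 9. For all 4 genes, a change in which clusters make up the state and a change within its cells cannot be told apart in this comparison.

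In primed cells TGFB1 raised 3 of 4 members tested (of 10930 genes 6.21% were called higher and 7.09% lower). THBS1 was at 35.0 and 53.1 CPM in 94 and 165 untreated primed cells and at 106 and 108 CPM in 1577 and 1757 TGFB1-treated primed cells. This was a rise of 1.34 ± 0.16 on the log2 scale, 2.54-fold (edgeR adjusted p = 2.61e-08). SPP1 was at 151 and 200 CPM against 364 and 321 CPM, a rise of 1.04 ± 0.13, 2.06-fold (edgeR adjusted p = 1.11e-07), and neither gene's groups overlapped. TNC was at 24.6 and 35.4 CPM in untreated and at 19.4 and 26.6 CPM in TGFB1-treated primed cells, which overlapped and did not pass the test (-0.31 ± 0.18, edgeR adjusted p = 0.288). SPARC was at 157 and 175 against 205 and 214 CPM (0.40 ± 0.13, edgeR adjusted p = 0.0283). That call was lost with DESeq2 (adjusted p = 0.129) and without untreated r1 (0.466), untreated r2 (0.0938), TGFB1 r1 (0.201) or TGFB1 r2 (0.409).

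The primed cells of the treatments compared lay mostly in different clusters. With TGFB1, 3254 primed cells were in cluster 4 and 80 in cluster 10, whereas in the untreated libraries 11 were in cluster 4 and 248 in cluster 10. Within cluster 10 the TGFB1 levels were not above the untreated ones for SPP1 and THBS1. SPP1 in cluster 10 was at 146 and 198 CPM in untreated r1 and r2 and at 132 and 95.9 CPM with TGFB1, and THBS1 was at 33.0 and 53.6 against 25.3 and 29.2 CPM, both lower with TGFB1 and without overlap. The TGFB1 values rest on 29 and 51 cells. The rises of SPP1 and THBS1 in the primed state were thus not seen within cluster 10, and a change in which cells make up the primed state and a change within its cells cannot be told apart.

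The response to TGFB1 differed between the states for TNC, THBS1 and SPP1, in a test of the difference itself with the library as a block, in which the primed response sets mostly cluster 4 cells against mostly cluster 10 cells. The log2 response was smaller in primed than in drug-susceptible cells by 2.26 ± 0.22 for TNC (difference -2.26, edgeR adjusted p = 5.45e-23), by 1.64 ± 0.17 for THBS1 (difference -1.64, edgeR adjusted p = 7.1e-20) and by 0.79 ± 0.12 for SPP1 (difference -0.79, edgeR adjusted p = 4.29e-09). These were 3 of 5 members tested, with 4.49% of 18502 genes called lower and 5.49% higher in the same test, 9.98% in all. SPARC did not pass (0.21 ± 0.10, edgeR adjusted p = 0.199), nor did THBS2 (-1.37 ± 1.75, edgeR adjusted p = 0.741). With TGFB1 the primed level of TNC was 1.05 and 1.45 times the drug-susceptible level in r1 and r2, against 7.46 and 6.43 times without treatment. The part of free RNA in these differences between the states was not tested.

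Over all 8 libraries the primed level was above the drug-susceptible level in 8 of 8 for SPP1 (17.7 to 52.6 times, median 32.1), THBS1 (5.43 to 35.0 times, median 21.3) and TNC (1.05 to 20.7 times, median 7.94). The lowest TNC ratio, in TGFB1 r1, was close to even (19.4 against 18.4 CPM). The highest ratios of TNC and THBS1 were in PI3Ki r1 and rested on 7 and 13 UMIs in primed cells. For SPARC it was above in 5 of 8, with a median of 1.01 times and a lowest value of 0.906. In the treatment experiment SPARC therefore lay close to even between the states, where it had been lower in primed cells in each well of the first experiment.

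**Figure D2:**
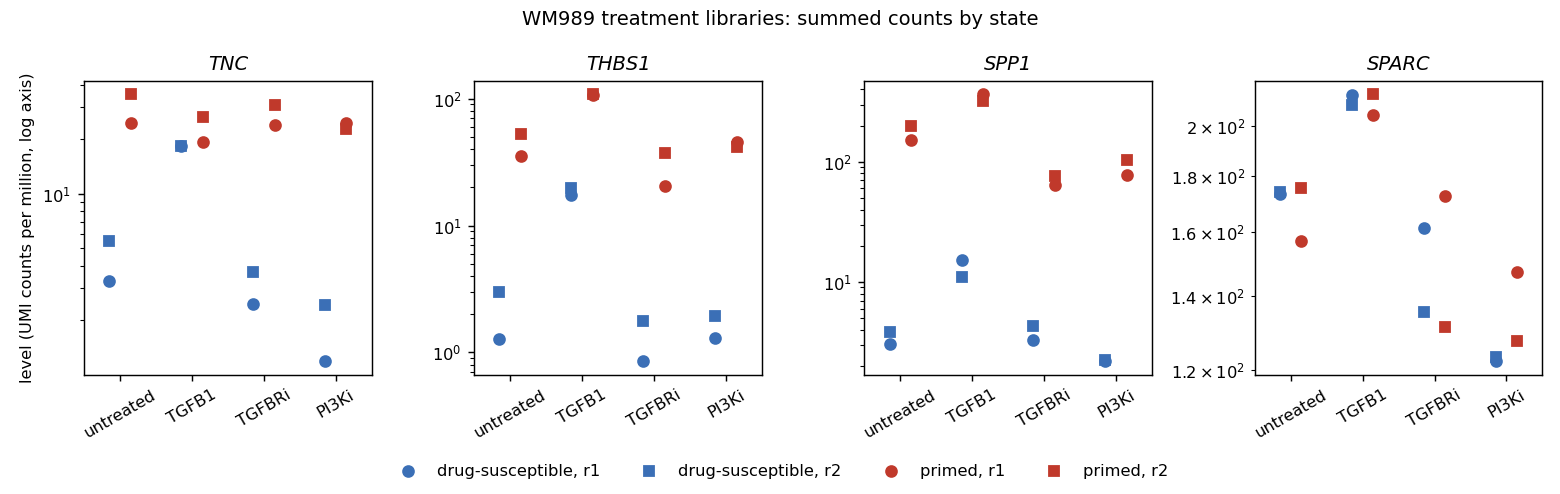
Levels of TNC, THBS1, SPP1 and SPARC (CPM, log axis) in drug-susceptible (blue) and primed (red) cells of each WM989 treatment library, circles for r1 and squares for r2. With TGFB1 the drug-susceptible TNC level (18.4 and 18.3 CPM) lies closer to that of primed cells (19.4 and 26.6 CPM) than without treatment. It remains lower in r2 and is nearly level in r1, and SPP1 stays further apart (15.2 and 11.1 against 364 and 321 CPM).

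TGFBRi addressed whether blocking the receptors lowers these transcripts. Over all cells 0 of 5 members passed the test by edgeR at an adjusted p of 0.05 (2.53% of genes were called, 1.09% higher and 1.45% lower) and 0 by DESeq2, while 4 had an unadjusted edgeR p under 0.05. SPP1 was at 4.42 and 6.74 CPM with TGFBRi, below 5.61 and 9.90 CPM in the untreated library of the same number (-0.45 ± 0.16, edgeR adjusted p = 0.161). THBS1 was at 1.21 and 2.998 against 1.86 and 4.52 CPM (-0.57 ± 0.22, edgeR adjusted p = 0.225) and TNC at 2.86 and 4.63 against 3.66 and 6.43 CPM (-0.41 ± 0.15, edgeR adjusted p = 0.196). All 3 were lower in both pairs, but with overlapping groups, and they were called in other fits. Without the filter on low counts the adjusted p was 1.97e-04 for SPP1, 2.67e-04 for THBS1 and 0.00693 for TNC, and with only untreated and TGFBRi libraries it was 0.00291, 0.00243 and 0.0263.

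Leaving out libraries also gave calls with TGFBRi over all cells. Without TGFB1 r1 or TGFB1 r2, which are not part of this contrast but share its estimate of the spread, the adjusted p was 0.0144 and 0.0141 for SPP1, 0.0292 and 0.0301 for THBS1 and 0.0430 and 0.0449 for TNC. Without untreated r1 it was 0.00208 for SPP1 and 0.00562 for THBS1, and without TGFBRi r2 it was 0.0308 for THBS1. Without untreated r2, in contrast, the log2 differences shrank to -0.06 for THBS1 and -0.08 for SPP1 (adjusted p = 1 for both), and without TGFBRi r1 to -0.24 and -0.26 (0.605 and 0.463). SPARC was at 162 and 135 CPM against 173 and 174 CPM (-0.21 ± 0.07, edgeR adjusted p = 0.149), and was called without TGFBRi r1 (0.00534).

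In drug-susceptible cells TGFBRi likewise gave 0 of 5 calls by edgeR and by DESeq2, with 3 at an unadjusted edgeR p under 0.05 (2.81% of genes were called, 1.22% higher and 1.59% lower). TNC was at 2.47 and 3.69 CPM (-0.49, edgeR adjusted p = 0.129), THBS1 at 0.85 and 1.77 CPM (-0.67, 0.0861), SPARC at 162 and 135 CPM (-0.22, 0.139) and SPP1 at 3.31 and 4.27 CPM (0.16, 0.734). TNC and THBS1 were called without the filter on low counts (4.07e-04 and 1.65e-04), with only the treatments compared (0.00527 and 0.00269), and without untreated r1 (0.0110 and 2.68e-04), TGFB1 r1 (0.0221 and 0.0201) or TGFB1 r2 (0.0209 and 0.0188). THBS1 was also called without TGFBRi r2 (0.0129), and SPARC without TGFBRi r1 (0.00405). In primed cells 1 of 4 members fell, where 0.302% of genes were called lower and 0.0732% higher. SPP1 was at 64.7 and 75.7 CPM in 118 and 271 primed cells with TGFBRi and at 151 and 200 CPM without, groups that did not overlap. It fell by 1.33 ± 0.16 on the log2 scale, to a level 2.51-fold lower (edgeR adjusted p = 6.39e-07), and each fit that left out 1 library kept the call. TNC (24.0 and 31.1 CPM), THBS1 (20.7 and 37.3 CPM) and SPARC (173 and 131 CPM) overlapped the untreated primed levels and did not pass.

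PI3Ki addressed whether blocking PI3-kinase lowers the same transcripts, and it lowered 3 of 5 members tested over all cells (6.83% of genes were called lower and 5.83% higher). SPP1 was at 2.49 and 3.06 CPM with PI3Ki, below both untreated libraries (5.61 and 9.90 CPM). It fell by 1.36 ± 0.17 on the log2 scale, 2.57-fold (edgeR adjusted p = 9.05e-06). TNC was at 1.28 and 2.59 CPM against 3.66 and 6.43 CPM, without overlap, and fell by 1.23 ± 0.16, 2.35-fold (edgeR adjusted p = 1.65e-05), a call lost without the replicate block (0.0578). SPARC was at 122 and 123 CPM against 173 and 174 CPM, without overlap, and fell by 0.40 ± 0.07, 1.32-fold (edgeR adjusted p = 7.13e-04), a call lost without PI3Ki r1 (0.0512). THBS1 was at 1.48 and 2.24 CPM against 1.86 and 4.52 CPM, with overlap, and did not pass (-0.65 ± 0.22, edgeR adjusted p = 0.0573).

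THBS1 passed with PI3Ki over all cells in several other fits. Its adjusted p was 3.81e-06 without the filter on low counts, 2.26e-04 with only the treatments compared, 6.29e-04 without untreated r1, 0.00345 and 0.00355 without TGFB1 r1 or r2, and 0.0201 and 0.0212 without TGFBRi r1 or r2. Without untreated r2 the log2 difference of THBS1 shrank from -0.65 to -0.12 (0.887), and without PI3Ki r1 or r2 the adjusted p was 0.173 and 0.305. Primed cells made up 0.647 and 1.21% of the PI3Ki libraries. They held 12.6 and 26.7% of the SPP1 UMIs there, against 46.3 and 62.7% in the untreated libraries.

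In drug-susceptible cells PI3Ki lowered TNC, SPP1 and SPARC, 3 of 5 members tested (6.22% of genes were called lower and 5.89% higher). TNC was at 1.19 and 2.43 CPM against 3.30 and 5.51 CPM and fell by 1.13 ± 0.17 on the log2 scale (edgeR adjusted p = 1.03e-04; 0.0595 without the replicate block). SPARC was at 122 and 123 against 174 and 174 CPM and fell by 0.40 ± 0.07 (edgeR adjusted p = 6.08e-04; 0.0530 without PI3Ki r1). SPP1 was at 2.19 and 2.26 against 3.06 and 3.81 CPM and fell by 0.52 ± 0.16 (edgeR adjusted p = 0.0384). None of these groups overlapped. The cells compared lay partly in different clusters, since most cells of cluster 6 came from PI3Ki libraries, and TNC and SPP1 were lowest there. A change in which clusters make up the state and a change within its cells cannot be told apart. The SPP1 call was lost with DESeq2 (adjusted p = 0.288), with upper-quartile scaling (0.0517), without the replicate block (0.162) and without untreated r2 (0.395), PI3Ki r1 (0.195) or PI3Ki r2 (0.167). THBS1 did not pass (-0.27, edgeR adjusted p = 0.415), but did without untreated r1 (0.0275).

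In the 25 and 70 primed cells of the PI3Ki libraries, SPP1 was at 77.1 and 104 CPM, below 151 and 200 CPM in untreated primed cells. It fell by 0.95 ± 0.19 on the log2 scale, 1.93-fold (edgeR adjusted p = 0.00246), 1 of 4 members tested where 1.32% of genes were called lower, and the call was lost without untreated r2 (0.175). TNC was at 24.5 and 22.8 CPM (edgeR adjusted p = 0.551), THBS1 at 45.6 and 41.5 CPM and SPARC at 147 and 128 CPM (edgeR adjusted p = 0.414), none of which passed.

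By cluster of the treatment experiment, in which the authors named clusters 4 and 10 of 13 primed, TNC, THBS1 and SPP1 were led by 3 clusters in differing order. SPP1 was at 367 and 327 CPM in cluster 4 over the cells of r1 and r2, at 103 and 122 in cluster 10 and at 21.3 and 18.6 in cluster 3, with no overlap between these neighbours. THBS1 was at 108 and 110 CPM in cluster 4, above 26.3 and 42.8 in cluster 10 and 28.5 and 44.9 in cluster 3, which overlapped each other. TNC was at 23.3 and 32.0 CPM in cluster 10, 23.7 and 27.2 in cluster 3 and 19.5 and 26.3 in cluster 4, which all overlapped, while the next cluster, 12, was at 5.001 and 9.81. SPARC was highest in cluster 3, at 254 and 288 CPM, and next in cluster 4, at 204 and 212.

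Cluster 3, which the authors placed in the drug-susceptible state, thus reached the primed clusters in TNC and SPARC and not in SPP1, and 3801 of its 4007 cells came from the TGFB1 libraries. At the low end, cluster 6, in which 2239 of 2531 cells came from PI3Ki libraries, had TNC at 0.33 and 0.51 CPM, THBS1 at 0.70 and 0.89 and SPP1 at 0.37 and 0.97. Within each of the 11 drug-susceptible clusters TNC was higher in TGFB1-treated than in untreated cells, as was THBS1 in 10 and SPP1 in 9, while SPARC was higher in 5. For example, TNC was at 15.4 CPM in TGFB1-treated and 4.71 CPM in untreated cells of cluster 1, at 12.9 and 3.87 in cluster 5 and at 17.9 and 6.72 in cluster 7. In the primed cluster 10 the values were 30.9 CPM with TGFB1 and 31.4 CPM without, whereas SPP1 there was at 109 and 180 CPM. These pooled levels of clusters have no test.

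**Figure D3:**
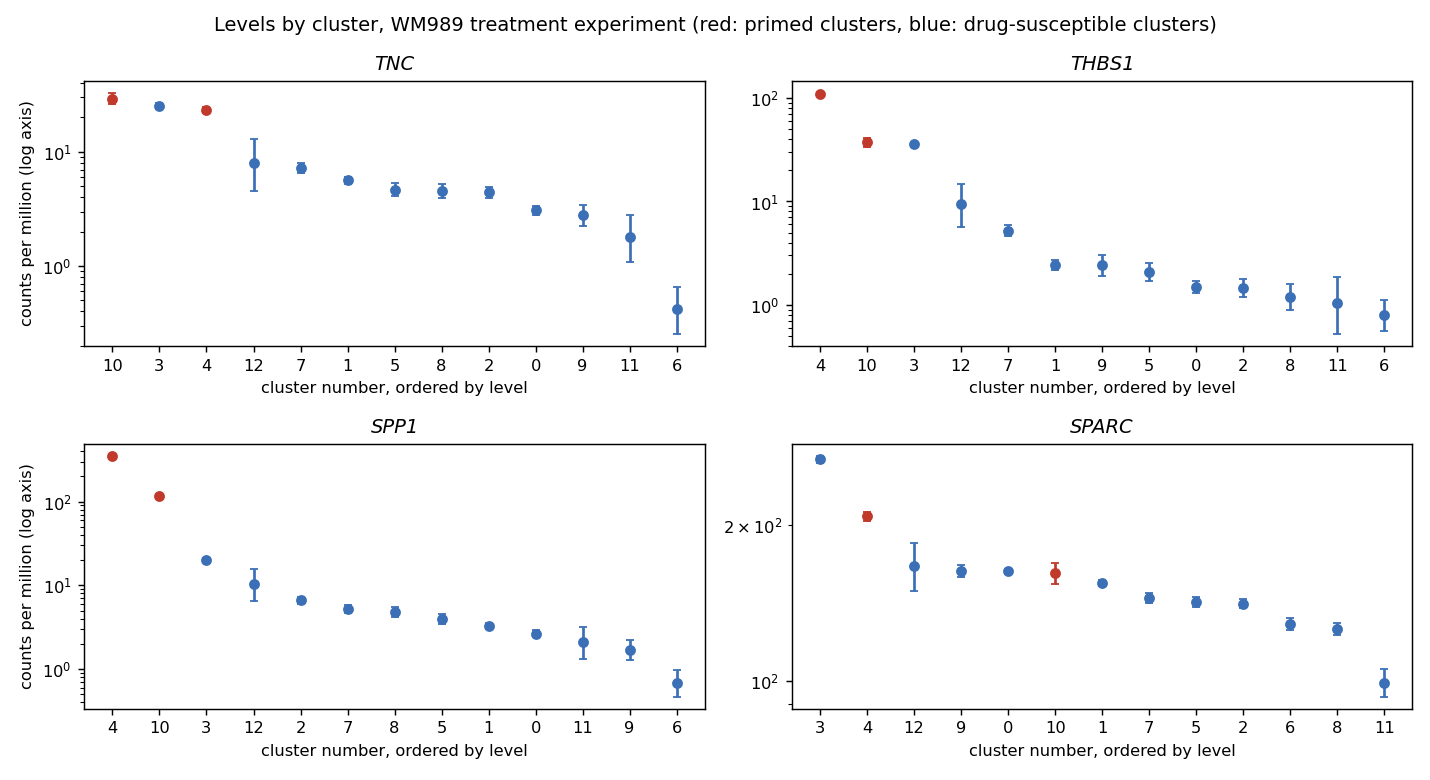
Levels of TNC, THBS1, SPP1 and SPARC (CPM, log axis) in the 13 clusters of the WM989 treatment experiment, ordered by level, with 95% counting intervals, primed clusters in red and drug-susceptible clusters in blue. Clusters 4, 10 and 3 lead for TNC, THBS1 and SPP1, and SPARC spans a much smaller range and is led by cluster 3.

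Over the 13 clusters, the log2 levels of TNC, THBS1 and SPP1 followed each other, with Pearson's r of 0.909 for TNC and THBS1, 0.881 for TNC and SPP1 and 0.933 for THBS1 and SPP1 (0.968, 0.956 and 0.975 over the 11 clusters of the first experiment). SPARC correlated with them at 0.728, 0.757 and 0.572 over the 13 clusters but at -0.649, -0.574 and -0.704 over the 11. Clusters share libraries, treatments and depth, and they were built from these counts, so these values are a description. Of 6909 other genes, those most like TNC were PTPRF (r = 0.965), CTSB (0.949) and PRNP (0.948), and those most like THBS1 were FN1 (0.990), MMP2 (0.984) and LOXL2 (0.977). Those most like SPP1 were SPOCD1 (0.987), FLNA (0.983) and MYL6 (0.981). In the first experiment these 9 genes correlated with their member at 0.940 to 0.986. Among the genes most like SPARC over the 13 clusters, P3H4 (0.912) and BCL2L11 (0.895) had r of 0.749 and -0.836 over the 11, so that the likeness of BCL2L11 to SPARC did not carry over.

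ATAC-seq at the gene starts compared the 9 marker-high libraries with the 3 Mix libraries. The value is the highest fold enrichment over local background of a peak within 500 bases of the RefSeq start, as called by the authors in each library. THBS1 had the clearest difference. Its start was at 19.6, 12.8 and 22.5 in EGFR_high, 25.1, 18.8 and 24.9 in NGFR_high and 26.5, 25.5 and 22.3 in EGFR_NGFR_high libraries, against 8.06, 5.18 and 7.26 in Mix libraries. All 9 marker-high values were above all 3 Mix values, which held for 1.95% of 19792 starts with a peak. The means were 22.0 and 6.84, a difference of 15.2 (two-sided exact permutation test, p = 0.00455, the smallest that the 220 arrangements can give). Adjusted over the 19792 starts the exact p was 0.293. The ratio of the means, 3.22, was above that of 99.9% of the 16937 starts with a peak in all 12 libraries, whose median was 1.05.

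TNC was at 25.2, 31.2 and 24.5 in EGFR_high, 26.6, 35.9 and 28.7 in NGFR_high and 36.9, 30.7 and 24.3 in EGFR_NGFR_high libraries, against 17.9, 24.5 and 17.4 in Mix libraries. The groups overlapped, with 7 of 9 marker-high libraries above each Mix library. The means were 29.3 and 19.95, a difference of 9.38 (exact permutation test, p = 0.0227; adjusted over all starts 0.466). An unadjusted exact p under 0.05 with the marker-high mean above was found at 5.96% of the starts, and at 2 of the 4 members tested. The TNC test did not pass without any 1 replicate number (exact p from 0.0714 to 0.143), and with 2000 bases on each side neither TNC (exact p = 0.218) nor THBS1 (exact p = 0.123) passed.

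SPP1, the member with the largest difference between the states in transcript level, had no such difference within 500 bases of its start. Its values were 10.2, 6.62 and 6.36 in EGFR_high, 8.75, 10.1 and 8.46 in NGFR_high and 12.8, 10.4 and 8.44 in EGFR_NGFR_high libraries, and 9.41, 8.48 and 9.68 in Mix libraries. The means were 9.12 and 9.19 (exact permutation test, p = 0.959). With 2000 bases on each side the SPP1 mean was 5.29 higher in marker-high libraries (exact permutation test, p = 0.0545). SPARC was high in each library, with means of 68.1 in marker-high and 58.6 in Mix libraries (exact permutation test, p = 0.182). THBS2, POSTN and SPARCL1 had no peak within 500 bases of their start in any of the 12 libraries.

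**Figure D4:**
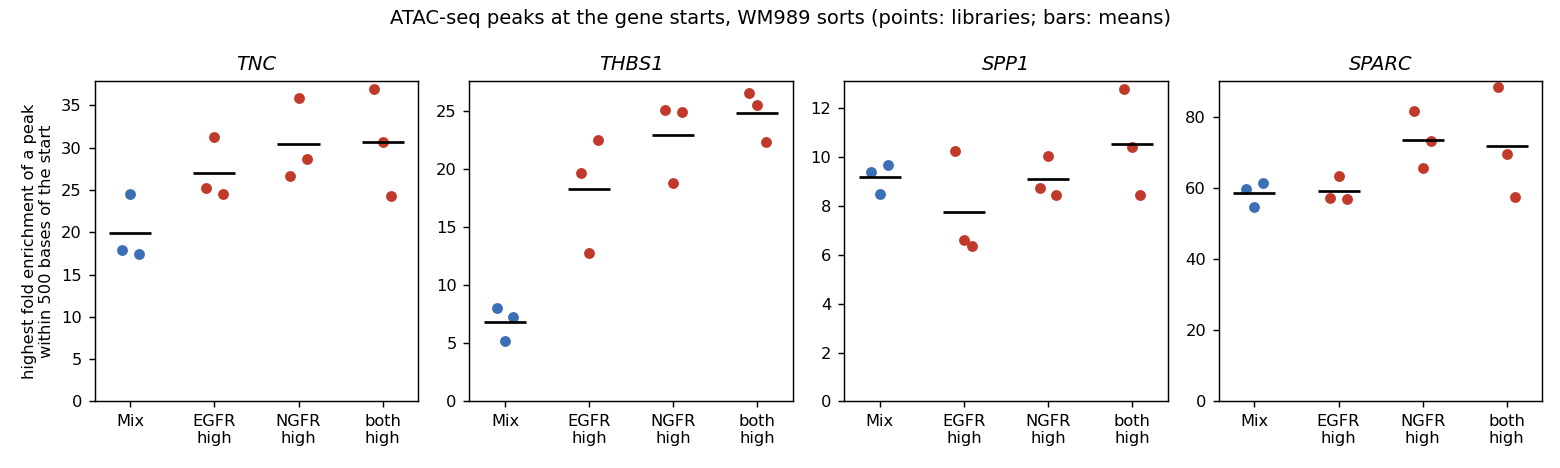
Highest fold enrichment of an ATAC-seq peak within 500 bases of the start of TNC, THBS1, SPP1 and SPARC in the 3 libraries of each WM989 sort, Mix in blue and marker-high sorts in red, with bars at the means. For THBS1 the Mix libraries lie between 5.18 and 8.06 and the marker-high libraries between 12.8 and 26.5, while for SPP1 the sorts overlap.

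Around the members, 87 regions with a peak in at least 3 libraries lay in the genes or within 50 kb of them. Of these, 6 had a peak in 6 or more marker-high libraries and in no Mix library, 6.90% against 4.27% of all 151823 regions. TNC had none of its 17, THBS1 1 of 13, SPP1 1 of 12, SPARC 1 of 23, POSTN 1 of 4, SPARCL1 2 of 12 and THBS2 none of 6. No region near a member had peaks in Mix libraries only, a kind that made up 0.193% of all regions. The SPP1 region, chr4:88017684-88018298, had a peak in 9 of 9 marker-high and 0 of 3 Mix libraries, with a highest fold enrichment per library from 7.56 to 18.2. It lies 42276 bases downstream of the SPP1 start, in an intron of PKD2, and no link to SPP1 was measured. The THBS1 region, chr15:39621968-39622409, had peaks in the EGFR_high and EGFR_NGFR_high libraries (6 in all) and in none of the NGFR_high libraries, and lies in an intron of FSIP1. The others were at chr13:37617161-37617734 near POSTN, chr5:151726463-151726730 near SPARC, and chr4:87523897-87524158, in an intron of SPARCL1, and chr4:87556055-87556472 near it.

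The 300 bases around the highest summit of the SPP1 region are shown because it was the only one of the 6 with a peak in all 9 marker-high libraries. It held none of the motif letters searched in the starts.
Region near SPP1 (hg38, chr4:88017952-88018251, plus strand): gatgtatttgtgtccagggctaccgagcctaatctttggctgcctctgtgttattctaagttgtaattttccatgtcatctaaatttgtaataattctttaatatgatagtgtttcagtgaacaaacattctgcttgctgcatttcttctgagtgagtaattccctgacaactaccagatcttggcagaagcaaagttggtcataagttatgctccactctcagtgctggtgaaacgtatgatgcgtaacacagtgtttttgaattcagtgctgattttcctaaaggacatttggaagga

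Other matricellular genes and the receptors of the group were read from lists in the same fits. Of 26 other matricellular genes, 10 passed the filter over all cells, and TGFB1 raised 5 of them and lowered 1, where 16.3% of all genes tested were called higher and 12.7% lower. TGFBI, a secreted relative of periostin, rose by 7.06 on the log2 scale, SPOCK1, a proteoglycan of the SPARC family, by 5.16, CCN2 (connective tissue growth factor) by 1.64, CCN3 by 1.01 and THBS3 by 0.45. FBLN5, an elastic-fibre protein, fell by 0.30. The list's median log2 difference was 0.39, against 0.01 over all genes tested. PI3Ki (5.83% of all genes higher, 6.83% lower) raised 2 (CCN2 by 0.46 and FBLN5 by 0.36) and lowered 3 (CCN3, which fell by 1.07, SPOCK1 by 1.66 and FSTL1 by 0.27), and TGFBRi (1.45% of all genes lower) lowered 1, FBLN5, which fell by 0.46. In primed cells TGFB1 raised SPOCK1 (2.08) and TGFBI (4.76), and CCN3 fell by 2.17, of 6 tested, where 6.21% of all genes were called higher and 7.09% lower. In drug-susceptible cells TGFB1 raised 4 genes of the list and lowered none of 10 tested by edgeR, where 8.56% of genes were higher and 6.32% lower.

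Of 24 receptor genes of these proteins, 22 were tested over all cells. TGFB1 raised 12 and lowered 3, with a median log2 difference of 0.46, against the 16.3% of all genes called higher and 12.7% called lower. The 3 of 22 that were lower were close to that share. Among those raised were the integrin subunits ITGA3 (1.56), ITGA5 (1.34), ITGB1 (1.04), ITGB3 (0.88) and ITGB5 (0.54), the syndecans SDC1 (3.03) and SDC4 (0.29), LRP1 (0.58), ANXA2 (0.79) and CD44 (0.64), the osteopontin receptor, and lower were ITGB8 (-0.91) and the lipoprotein receptors VLDLR (-0.44) and LRP8 (-0.46), all as log2 differences. PI3Ki lowered 7, among them ITGB3 (-0.79), ITGB8 (-0.88), ITGA5 (-0.62) and ITGB1 (-0.46), against 6.83% of all genes, and TGFBRi raised ITGB8 (0.46). PTPRZ1, a tenascin receptor, rose with all 3 treatments, by 0.71 with TGFB1, 0.55 with TGFBRi and 0.40 with PI3Ki. TLR4, a receptor for tenascin, was also called higher with TGFB1 (edgeR adjusted p = 2.15e-04), from counts too low for a fold. In drug-susceptible cells TGFB1 raised 9 and lowered 3 of 21 receptor genes tested, and in primed cells it raised 4 and lowered 2 of 17, with 8.56 and 6.32% of all genes called higher and lower in the former cells and 6.21 and 7.09% in the latter. As a check of the treatment, 7 of 7 known TGF-beta response genes rose with TGFB1 over all cells, in drug-susceptible cells and in primed cells, and 3 of 7 fell with TGFBRi over all cells. Of 10 marker genes of the states, 3 rose and 4 fell with TGFB1 over all cells. Of the marker genes of other cell types, 6 of 10 were tested over all cells, and PECAM1 (3.02) and PDGFRA (1.26) rose with TGFB1 on the log2 scale. Their part in the members' rise was not tested.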

How the data were processed

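Single-cell RNA-seq libraries were made by the authors with the 10x Genomics 3' chemistry, and they deposited UMI counts per gene and cell from Cell Ranger (version and annotation not given in the sources used here), together with a cell table giving cluster, state, treatment, replicate and phase. Libraries were aggregated without depth normalization and cells were filtered by the authors in Seurat, which removed likely doublets as cells with many detected genes. No doublet caller was run here. For ATAC-seq, reads were aligned to hg38 with Bowtie2 2.3.4.1 and handled with SAMtools 1.1, and peaks were called in each library with MACS2 2.1.1.20160309. The deposited peak lists give each peak's fold enrichment over local background, a ratio, and its q-value as −log10.

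Counts were summed per library or per state and library and divided by the summed UMIs (CPM). The sums were tested across all genes with edgeR 4.0.16 in R 4.3.3 (quasi-likelihood test, TMM factors, genes kept by edgeR's filter on low counts, treatment and replicate as terms, all 8 libraries in the fit, Benjamini-Hochberg adjustment, threshold 0.05). The value after ± (SE) is the size of the log2 difference divided by the square root of the edgeR test's F statistic. DESeq2 1.42.0, other scaling, filters and sets of libraries were tried as alternatives. The replicate number paired the libraries: plates of 1 number came from 1 starting well per the methods, and the differences between r2 and r1 correlated between treatments at 0.256 to 0.365. On simulated counts for the TGFB1 comparison over all cells (18389 genes, 200 changed), the test recovered 82% of 2-fold and 95% of 4-fold changes with 4 false calls. The simulated counts held no difference between r1 and r2 and used the trended spread in place of each gene's own. They changed 200 genes, where 5324 were called in the data. They thus do not give the error rate of the reported calls.

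Tests at gene starts were exact permutation tests over the 12 ATAC-seq libraries, adjusted over 19792 starts, with SciPy 1.17.1 and bedtools 2.31.1. Regions were peaks merged over libraries and found in at least 3. The peak files named 79 chromosomes, all of them in the hg38 reference, and no peak passed the end of a main chromosome. Gene positions were taken from GENCODE and starts and promoter stretches from RefSeq.

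The genes named are the 7 members, the genes of the lists of other matricellular genes and receptors that passed the threshold, and, for each member with at least 5 CPM in a cluster, the 3 genes with the highest correlation of log2(CPM + 1) over the clusters of the treatment experiment, among those reaching 20 CPM in some cluster. For SPARC, 1 gene named by this rule is not reported here. Lists of state markers, TGF-beta response genes and markers of other cell types served as checks. The members and the lists were chosen with earlier results of these data known. Wells of the first experiment were not compared by sort, since their sort is not labelled.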

Additional observations from a re-analysis of the deposited data

Results flagged for a closer look

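For TNC, THBS1 and SPP1 the response to TGFB1 differed between the primed and the drug-susceptible cells of WM989 in a test of the difference itself. The primed response minus the drug-susceptible response was -2.26 for TNC, -1.64 for THBS1 and -0.79 for SPP1 on the log2 scale. The states were assigned from the same counts, and primed cells lay mostly in cluster 4 with TGFB1 and mostly in cluster 10 without. Within cluster 10 SPP1 was at 109 CPM with TGFB1 and 180 CPM without, so the part of that assignment cannot be told apart from a response of the cells. The part of free RNA in droplets was not tested.

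For SPP1 and SPARC the direction differed between WM983B and the first WM989 experiment. SPP1 had a log2 ratio of primed over drug-susceptible cells of -2.27 in WM983B and was higher in primed cells in 8 of 8 wells of WM989, and SPARC had a log2 ratio of 0.53 in WM983B and was lower in primed cells in 8 of 8 wells of WM989. In the untreated r1 and r2 libraries of the treatment experiment, SPARC in primed WM989 cells was at 0.906 and 1.01 times the drug-susceptible level. There its direction was thus not seen, while SPP1 was 49.4 and 52.6 times higher in primed cells. WM983B has 1 library, so the difference between the lines was not tested.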

How the results depend on the processing

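The members' fold changes had 574 alternative values over 47 combinations of member and comparison, of which 513 kept direction and side of the threshold, 36 passed where the reported fit did not, 25 lost the call and none reversed a called direction. Without the replicate block fewer genes were called: with TGFBRi the number was 40 over all cells (466 as reported), 47 in drug-susceptible cells (503) and 9 in primed cells (41), with PI3Ki 649 (2328), 570 (2170) and 87 (195), and with TGFB1 1189 in drug-susceptible cells (2665). Members called with PI3Ki in drug-susceptible cells were then 1 in place of 3. With only the 2 treatments compared, genes called with PI3Ki were 4193, 4499 and 75, and with TGFBRi in primed cells 23, and members called with TGFBRi were 3 over all cells and 2 in drug-susceptible cells, in place of 0. The same 3 and 2 members were called without the filter on low counts, with 748 genes over all cells. DESeq2 called 326 genes with TGFBRi in drug-susceptible cells, 16 in primed cells and 693 with TGFB1 in primed cells (1454). The cause of these shifts was not tested.

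Leaving out 1 library at a time, genes and members called ranged, with TGFB1, over 3164 to 6377 and 3 to 4 in all cells, 988 to 3722 and 3 to 4 in drug-susceptible cells, and 584 to 1726 and 2 to 3 in primed cells. With TGFBRi they ranged over 168 to 1146 and 0 to 3, 206 to 1247 and 0 to 2, and 17 to 63 and 1 to 1, and with PI3Ki over 719 to 3298 and 2 to 4, 632 to 3286 and 1 to 4, and 96 to 239 and 0 to 1. The difference in response between the states ranged over 825 to 1245 genes (1847 as reported) and 3 to 3 members. The log2 ratio of the states in WM989 without r1 or r2 was 2.54 to 3.17 for TNC, 3.20 to 3.68 for THBS1, 2.61 to 3.27 for THBS2, 5.36 to 6.66 for SPP1 and -0.93 to -0.85 for SPARC, and with wells weighted equally it was 2.02 for TNC. In WM983B it was 0.87 for TNC as a mean over cells (0.83 as reported).

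At the gene starts the difference without 1 replicate number was 8.24 to 10.0 for TNC, 14.8 to 15.8 for THBS1, -0.69 to 0.86 for SPP1 and 6.28 to 13.8 for SPARC. With 2000 bases on each side it was 3.98 for TNC, 3.32 for THBS1 and 5.29 for SPP1, and with the 50000 highest-ranked peaks it was 21.2 for TNC and 18.5 for THBS1 while SPP1 had no value. GENCODE starts, an alternative chosen after seeing the data, changed no call. Regions with peaks in marker-high libraries and none in Mix were 2 within 20 kb and 1 with the 50000 highest-ranked peaks, in place of 6. The share over all regions was 4.27% in the former and 2.65% in the latter setting. The region of the latter setting lay near TNC (1 of 4 regions), so it was not among the 6. That setting gave none of 2 regions near THBS1, 3 near THBS2, 4 near SPP1, 10 near SPARC and 2 near SPARCL1. Within 20 kb the regions were 1 of 2 near POSTN and 1 of 7 near SPARCL1. There were none of 13 near TNC, 6 near THBS1, 4 near THBS2, 7 near SPP1 and 15 near SPARC within 20 kb. ATAC-seq libraries of the same number did not deviate together (r from -0.01 to 0.08 over 18 pairs), so that the numbers do not pair them, and a replicate block in the permutation changed no call. The 2 libraries per treatment, few primed cells outside TGFB1 and 1 WM983B library limit the precision, and POSTN and SPARCL1 were too rare to be tested between treatments.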

Other observations

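In the primed cells of the treatment experiment all 4 members were highest in G1 and lowest in G2M, with all libraries pooled and no test. SPP1 was at 377 CPM in G1, 256 in S and 216 in G2M, SPARC at 238, 214 and 132 CPM and THBS1 at 109, 99.6 and 70.9 CPM. TNC was at 26.9, 24.8 and 20.2 CPM. SPP1 and SPARC were thus highest in G1 in both WM989 experiments, and the mix of treatments in each phase was not equalised.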
